A study of Mus musculus with 6 samples.

Results

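Of the 23107 genes counted in the aortic valve libraries, 10 genes of fat cells are described here. They were listed by name as genes of white and brown adipocytes, at a time when earlier results of these data were known: Adipoq, Retn, Lep and Cfd, whose products are secreted, Plin1, Plin4 and Cidec, which belong to the lipid droplet, Fabp4 and Lpl, which handle fatty acids, and Ucp1, the defining gene of brown fat. Aortic valve RNA was taken at 4 months of age from an outbred mouse stock, in 3 control and 3 mutant libraries. The mutants, caAcvr1:Nfatc1Cre, carried a transgene for a constitutively active form of the BMP type I receptor Acvr1, which Cre turns on, together with a Cre cassette knocked into the Nfatc1 locus. According to the study's text, this Cre recombines in the endocardium, in cushion cells derived from it, in valve interstitial cells and at the junction of leaflet and wall. It does not recombine in myocardium or smooth muscle. The study proposes that some of the recombined cells do not come from the endocardium. The labels call the controls wild type, whereas the methods allow controls with the transgene alone, the Cre alone or neither, and which of these were sequenced is not given in the sources used here. Mutant mice also formed ectopic bone in their limbs and were smaller than their littermates. The number of mice per library and the sequencing batch are not given in the sources used here either, so p-values measure only the spread between these libraries.

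White adipocytes store triglyceride in a single large droplet and secrete adipokines, whereas brown adipocytes burn fatty acids through the uncoupling protein Ucp1 to make heat. Valve leaflets consist of interstitial cells, matrix and an endothelial cover, and fat lies outside them, in the epicardium and around the aorta, where much of the mouse's perivascular fat is of the brown kind. Lpl, Plin4 and Fabp4 are less particular to fat: cardiac muscle makes Lpl and Plin4, and endothelium and macrophages make Fabp4. In bulk tissue, fewer cells of a type and less RNA per cell cannot be told apart.

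The start regions of 3 members are shown because the libraries ordered these genes differently. Adipoq and Cfd were high and low in nearly the same libraries, and Ucp1 was not. Each sequence holds the 250 bases before the RefSeq start site in GRCm38.p6, the assembly also called mm10, 5′ to 3′ on the gene's strand. Capitals mark CCAAT on either strand, which reads ATTGG on the opposite one, and AGGTCA, an element of nuclear receptor sites, on either strand. Adipoq lies at chr16:23146286-23146535 on the plus strand, Cfd at chr10:79890603-79890852 on the plus strand and Ucp1 at chr8:83290098-83290347 on the plus strand.
Adipoq: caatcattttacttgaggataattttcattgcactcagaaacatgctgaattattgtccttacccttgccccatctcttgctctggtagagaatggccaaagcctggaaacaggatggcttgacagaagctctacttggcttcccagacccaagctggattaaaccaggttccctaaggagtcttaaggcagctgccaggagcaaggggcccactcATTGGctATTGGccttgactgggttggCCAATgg
Cfd: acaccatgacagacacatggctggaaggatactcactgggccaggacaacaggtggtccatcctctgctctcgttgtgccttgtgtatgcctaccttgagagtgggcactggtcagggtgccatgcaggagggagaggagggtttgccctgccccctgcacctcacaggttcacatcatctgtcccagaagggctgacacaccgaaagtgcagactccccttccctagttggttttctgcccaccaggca
Ucp1: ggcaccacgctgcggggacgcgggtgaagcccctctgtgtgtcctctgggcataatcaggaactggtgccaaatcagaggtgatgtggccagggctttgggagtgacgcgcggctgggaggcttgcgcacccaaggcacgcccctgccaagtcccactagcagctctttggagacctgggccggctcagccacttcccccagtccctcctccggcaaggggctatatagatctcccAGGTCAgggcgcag
The Adipoq region held CCAAT 3 times, beginning 34, 27 and 7 bases before the start. AGGTCA stood 14 bases before the start of Ucp1, and Cfd held neither. Of the 9 regions found in RefSeq for 8 of the members (Cidec has more than 1), 2 held CCAAT, those of Adipoq and Plin4, against 33.8% of the 32851 regions in the table. AGGTCA was present in 1 of the 9, that of Ucp1, against 14.0% of all regions. TATAAA on the gene's strand and CACGTG on either strand were present in 0 of the 9, against 7.59% and 6.02% of all. Fabp4 and Lpl are named only. A match is a description of letters and not of a bound site.

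Library totals ran from 46180667 to 55728852 estimated fragments in the controls and from 32218345 to 53129462 in the mutants. A count of 3, the limit that a count of 0 allows, equalled 0.0538 to 0.0931 counts per 1e6 (CPM) across the libraries. Levels are given as CPM after TMM normalization, which scales libraries to a comparable size. All 10 members passed the filter of at least 10 counts in at least 3 libraries, Ucp1 with exactly 3. Control 2 stood apart from the others: each of 8 mesothelial and 8 smooth muscle markers was highest there, and the mean of 12 cardiac muscle markers was lowest there. Xist was counted 2920 and 3061 times in control 1 and mutant 1, where the Y-linked Ddx3y had 14 and 18 counts, and 15 and 29 times in controls 2 and 3. Mutants 2 and 3 had both transcripts, with 777 and 372 counts of Xist and 3040 and 2799 of Ddx3y.

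Adipoq encodes adiponectin, the most abundant hormone of fat cells, and lies on chromosome 16 from 23146536 to 23158028. Its level was 26.3, 47.5 and 12.1 CPM in controls 1, 2 and 3, and 23.3, 9.17 and 31.4 CPM in mutants 1, 2 and 3. The highest library was a control and the lowest a mutant, 5.18-fold apart, and both groups spanned most of that range. The group means were 28.6 ± 17.9 CPM in the controls and 21.3 ± 11.2 CPM in the mutants (SD, n = 3 each). On the log2 scale mutants differed from controls by -0.43, with a standard error of 0.57 and an adjusted p of 0.999 in edgeR, which is less than the spread between libraries of a group.

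Cfd encodes adipsin, the complement factor D that adipocytes secrete in bulk (chromosome 10, 79890853 to 79892655). It was counted at 242, 895 and 183 CPM in controls 1, 2 and 3 and at 249, 151 and 662 CPM in mutants 1, 2 and 3. Control 2 and mutant 3 were set off from the other 4 libraries, 1 from each group. Retn encodes resistin (chromosome 8, 3655770 to 3660110). Its level was 6.13, 27.1 and 7.91 CPM in the controls and 12.6, 5.71 and 21.4 CPM in the mutants, in replicate order. Control 2 and mutant 3 were again the highest. Per library the groups overlapped fully for both genes, and the log2 fold changes were -0.31 (standard error 0.74) for Cfd and -0.06 (standard error 0.67) for Retn.

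Lep encodes leptin, the hormone that reports the size of the fat stores (chromosome 6, 29060220 to 29073877). Its level was low, at 2.05, 3.04 and 0.652 CPM in controls 1, 2 and 3, from 110, 154 and 30 counts. In mutants 1, 2 and 3 it was 0.791, 0.227 and 1.07 CPM, from 41, 9 and 34 counts. Controls 1 and 2 lay above every mutant, and control 3 lay below mutants 1 and 3. In edgeR the log2 fold change of -1.47 (standard error 0.73) was, after that of Ucp1, the farthest from 0 among the members. In limma-voom Lep was farther from 0 than Ucp1, at -1.48 against -0.34. The adjusted p of Lep was 0.999 in edgeR. Before adjustment it lay at 0.0843 in edgeR and at 0.0489 in DESeq2, where the adjusted p was 1.00.

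**Figure D1:**
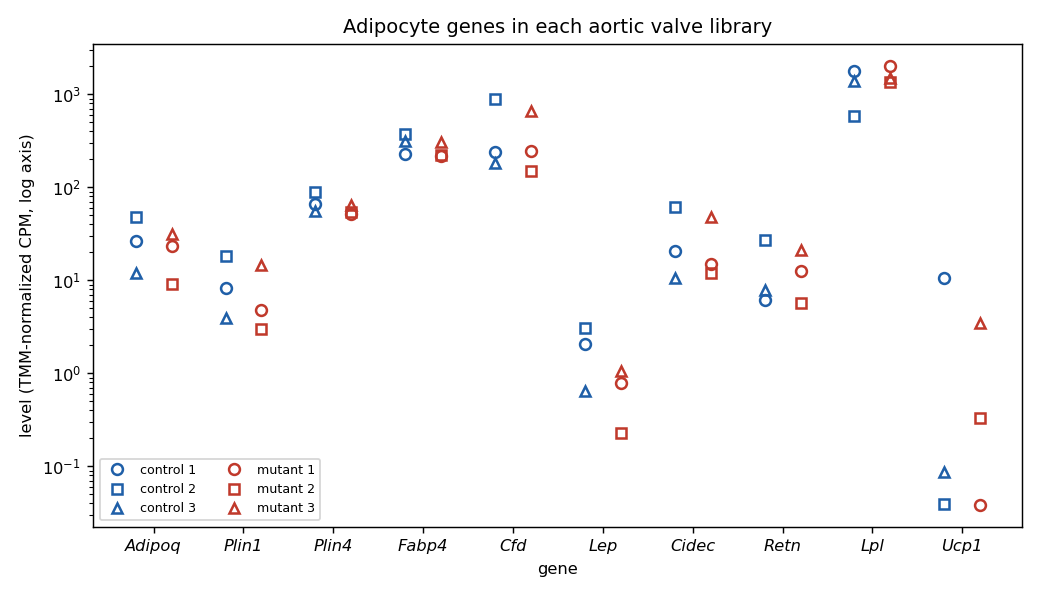
Level of each of the 10 adipocyte genes (TMM-normalized CPM, log axis) in each library, with controls in blue and mutants in red and a symbol for each replicate number. Control 2, the blue square, is the highest of the 6 libraries for 8 genes and the lowest for Lpl, and the 2 groups overlap for every gene.

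The genes of the lipid droplet varied in different degrees. Plin1 encodes perilipin 1, which coats the droplet of fat cells and guards it from lipases (chromosome 7, 79720218 to 79732903). Its level was 8.31, 18.3 and 3.91 CPM in controls 1, 2 and 3 and 4.78, 2.98 and 14.7 CPM in mutants 1, 2 and 3. The order of the 6 libraries was the same as for Adipoq: control 2, mutant 3, control 1, mutant 1, control 3, mutant 2. Cidec encodes a protein that fuses droplets in white adipocytes (chromosome 6, 113424634 to 113435760). It was counted at 20.9, 61.0 and 10.6 CPM in the controls and at 15.1, 12 and 47.9 CPM in the mutants. Control 2 and mutant 3 were the highest here as well, with control 3 the lowest. Plin4, a perilipin of small droplets that cardiac muscle also makes (chromosome 17, 56100591 to 56109803), varied little, at 66.3, 88.3 and 55.9 CPM in the controls and 51.6, 54.9 and 65.3 CPM in the mutants. The log2 fold changes were -0.44 (standard error 0.72) for Plin1, -0.31 (standard error 0.74) for Cidec and -0.29 (standard error 0.18) for Plin4.

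Fabp4 encodes a fatty acid carrier of adipocytes, macrophages and capillary endothelium (chromosome 3, 10204088 to 10208576). Its level was 229, 372 and 316 CPM in controls 1, 2 and 3 and 219, 221 and 304 CPM in mutants 1, 2 and 3, a 1.70-fold range. Lpl encodes lipoprotein lipase, which frees fatty acids from circulating lipoproteins (chromosome 8, 68880491 to 68907448). It was the most highly counted member, at 1801, 583 and 1404 CPM in the controls and 2022, 1359 and 1489 CPM in the mutants. Control 2 was the lowest library for Lpl and the highest for Adipoq. The log2 fold changes were -0.30 (standard error 0.22) for Fabp4 and 0.36 (standard error 0.41) for Lpl, the only member with a positive value.

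Ucp1 divided the libraries in a way no other member did (chromosome 8, 83290352 to 83298452). It had 569 counts in control 1, 110 in mutant 3 and 13 in mutant 2. In control 2, control 3 and mutant 1 it had 2, 4 and 2 counts, at or near the limit of 3. The corresponding levels were 10.6 CPM in control 1 (95% exact Poisson interval 9.75 to 11.5), 3.45 CPM in mutant 3 (2.83 to 4.16) and 0.328 CPM in mutant 2 (0.175 to 0.562). In control 2 the upper bound was 0.143 CPM, although Adipoq, Plin1 and Lep were all highest there. These intervals cover counting error only. The log2 fold change of -1.52 (standard error 2.0) was smaller than its standard error. It was -0.34 in limma-voom and -0.23 there with quality weights. Without mutant 1 it was -0.94, without control 2 it was -2.11, and with a block for replicate number it was 1.31. Ucp1 passed the filter only through its 3 higher libraries, and DESeq2 gave no p-value for it.

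For all 10 members the adjusted p was 0.999 in edgeR, and 0 of 10 were called, as were 0 of the 15354 genes tested, a background of 0%. At an unadjusted p under 0.05, edgeR gave 0 of 10 members against 3.45% of all genes, DESeq2 gave 1, against 4.45% of all genes there, and limma-voom gave 0, against 3.45%. Every mutant lay above every control for 0 of 10 members and 4.04% of all genes, and below for 0 of 10 and 4.83%. The median log2 fold change was -0.31 over the members and 0.01 over all genes tested, with 9 members lower and 1 higher in the mutants. These signs rested in part on single libraries. Without control 2 the value was 0.15 for Adipoq, 0.29 for Plin1, 0.74 for Cfd, 0.66 for Cidec and 0.91 for Retn. Without mutant 3 it was -0.82, -1.38, -1.14, -1.19 and -0.58 for the same genes. Without mutant 2 it was 0.05 for Cfd, 0.03 for Cidec and 0.30 for Retn. Without control 3, Plin4 and Lep had an unadjusted p under 0.05 in edgeR, 2 of 10 members against 3.08% of all genes in that fit, with adjusted p = 0.996 for both. Without control 2, Lpl was at 0.02, Plin4 at -0.09 and Fabp4 at -0.13. Lep stayed below 0 with any single library left out, from -1.89 without mutant 3 to -0.96 without control 2.

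**Figure D2:**
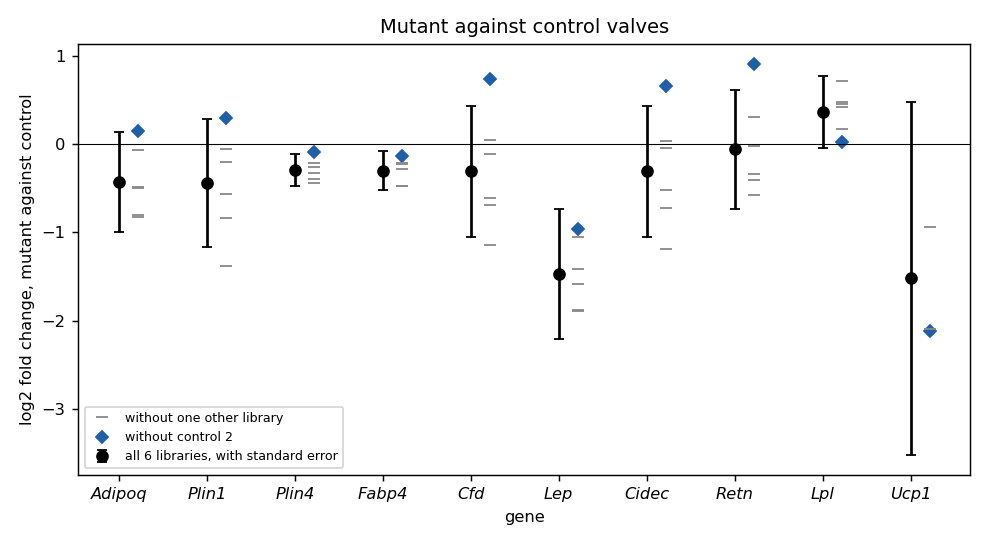
Log2 fold change of each member, mutants against controls (black points with standard errors, all 6 libraries), beside the values with single libraries left out (grey dashes, and blue diamonds without control 2). Without control 2 the values of Adipoq, Plin1, Cfd, Cidec and Retn lie above 0, and those of Plin4, Fabp4, Lep and Ucp1 remain below it. Among the grey dashes, those without mutant 2 lie above 0 for Cfd, Cidec and Retn. Ucp1 lacks the values without control 1, mutant 2 or mutant 3, because it then no longer passed the filter.

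Most members varied more between libraries of the same group than the typical gene did. Over the members, the median within-group SD of log2 CPM was 1.07, against 0.24 over all genes tested. Some other lists varied about as much, with medians of 1.32 for mesothelium, 1.22 for red blood cells and 1.18 for lymphoid cells. The median was 0.95 for a list of other adipose genes, 0.94 for cardiac muscle and 0.92 for skeletal muscle. Further lists varied less, with 0.69 for smooth muscle, 0.3 for adipose progenitors and fibroblasts and 0.29 for valve interstitial cells. The median was 0.28 for capillary endothelium and 0.12 for macrophages. All 10 members lay above the all-gene median, and 7 lay above the 90th percentile of 0.78. The SD was 0.96 for Adipoq, 1.14 for Plin1, 1.16 for Cfd, 1.18 for Cidec, 1.05 for Retn and 1.10 for Lep. It was 0.27 for Plin4, 0.32 for Fabp4 and 0.64 for Lpl, the 3 members that other heart cells also make. Ucp1 reached 3.34, with 99.9% of all genes below it. Counting error was at most 0.48 on this scale for Lep and 1.02 for Ucp1 in their lowest library. The median stayed between 0.89 and 1.22 with any single library left out, and the lowest value was that without control 2.

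**Figure D3:**
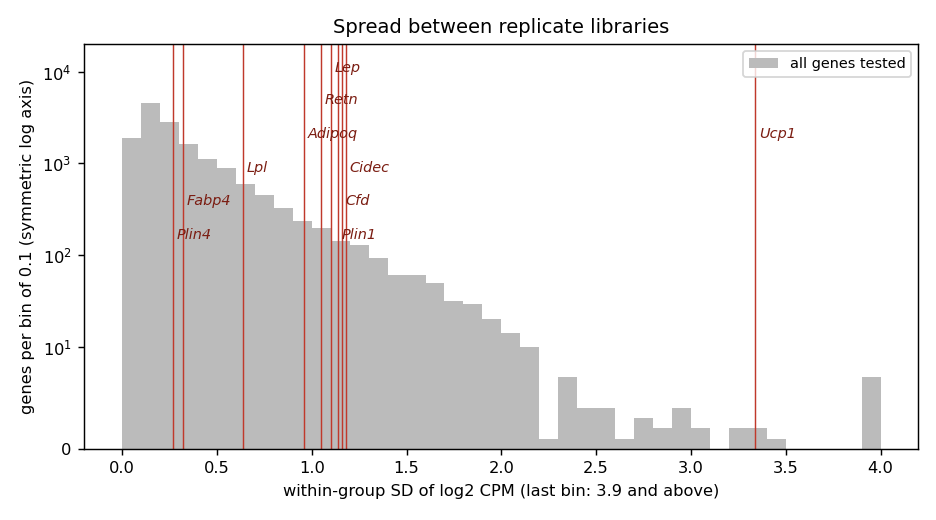
Histogram of the within-group SD of log2 CPM over the 15354 genes tested (grey, counts per bin of 0.1 on a symmetric log axis, where the last bin holds all values of 3.9 and above), with a red line for each member. Plin4 and Fabp4 lie near the bulk of all genes, 6 members lie close together between 0.96 and 1.18, and Ucp1 lies at 3.34.

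Library by library, control 2 was the highest of all 6 for 8 of the 10 members, the exceptions being Lpl and Ucp1. Mutant 3 took the next place for 5 of these 8 and one of the next 2 places for all 8. Mutant 2 was the lowest library for 5 members and mutant 1 for 3. Ucp1 is among these 3, and as mutant 1 and control 2 both had 2 counts of it, its lowest place rests on scaling alone. The highest library was thus a control and the runner-up usually a mutant. Summed over the members, the levels ran from 1816 CPM in mutant 2 to 2640 CPM in mutant 3. Lpl made up 56.4% to 77.8% of the members' counts in 5 libraries and 27.8% in control 2, where Cfd was counted above it. The mean log2 CPM over the members, which weights them equally, was 5.19, 5.25 and 4.06 in controls 1, 2 and 3 and 4.29, 3.88 and 5.50 in mutants 1, 2 and 3. It averaged 4.83 ± 0.67 in the controls and 4.56 ± 0.84 in the mutants (SD, n = 3 each). Ucp1 weighed heavily in this mean. Over the other 9 members it was 5.39, 6.23 and 4.84 in controls 1, 2 and 3 and 5.17, 4.47 and 5.91 in mutants 1, 2 and 3, with control 2 the highest and control 1 behind mutant 3.

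Per kilobase of transcript, the median level over the 6 libraries ran from 352 CPM for Lpl, 297 for Fabp4 and 266 for Cfd to 19.2 for Adipoq, 10.5 for both Plin4 and Cidec, 8.98 for Retn, 2.32 for Plin1, 0.285 for Lep and 0.127 for Ucp1. The ranges of neighbours over the 6 libraries overlapped except at 2 places: the lowest value of Cfd was 164 CPM per kilobase against a highest of 36.8 for Adipoq, and the lowest of Plin1 was 1.06 against a highest of 0.933 for Lep. The ranges of Retn and Plin1 overlapped, although Retn was above Plin1 within each library.

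Set against Adipoq within each library, 5 members, the other 3 secreted proteins with Plin1 and Cidec, had a ratio that varied less than their own level. The log2 ratio to Adipoq had an SD of 0.39 over the 6 libraries for Plin1, 0.47 for Cfd, 0.48 for Cidec, 0.58 for Lep and 0.58 for Retn, whereas the log2 levels of the same genes had SDs of 1.06, 1.04, 1.06, 1.24 and 0.94. For Plin4, Fabp4 and Lpl the order was the opposite, with ratio SDs of 0.69, 0.78 and 1.28 against 0.28, 0.32 and 0.63 for the level. There were 9.22, 18.8 and 15.2 counts of Cfd per count of Adipoq in controls 1, 2 and 3 and 10.7, 16.4 and 21.1 in mutants 1, 2 and 3. Lpl, in contrast, had 12.3 counts per count of Adipoq in control 2 and 148 in mutant 2. Ucp1 ranged from 0.000831 in control 2 to 0.404 in control 1.

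Lep was the single member whose ratio to Adipoq separated the groups. There were 0.0781, 0.0640 and 0.0540 counts of Lep per count of Adipoq in controls 1, 2 and 3, and 0.0340, 0.0248 and 0.0340 in mutants 1, 2 and 3. Every mutant thus lay below every control for 1 of 9 members, which was so for 0.117% of the genes tested other than Adipoq. Every mutant lay above for 0 of 9, against 0.619%. For the levels themselves the shares were 4.83% and 4.04% of all genes. The ratio of a gene that does not follow Adipoq carries the spread of Adipoq, an SD of 0.88 with overlapping groups, and can rarely separate them. The shares for ratios are therefore no background for members that follow Adipoq, and no conclusion is drawn from them. The exact permutation test, two-sided, gave p = 0.1 for Lep, the smallest that 3 libraries against 3 can reach. This ratio was singled out after its values were seen, and the mutant 2 value rests on 9 counts of Lep.

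**Figure D4:**
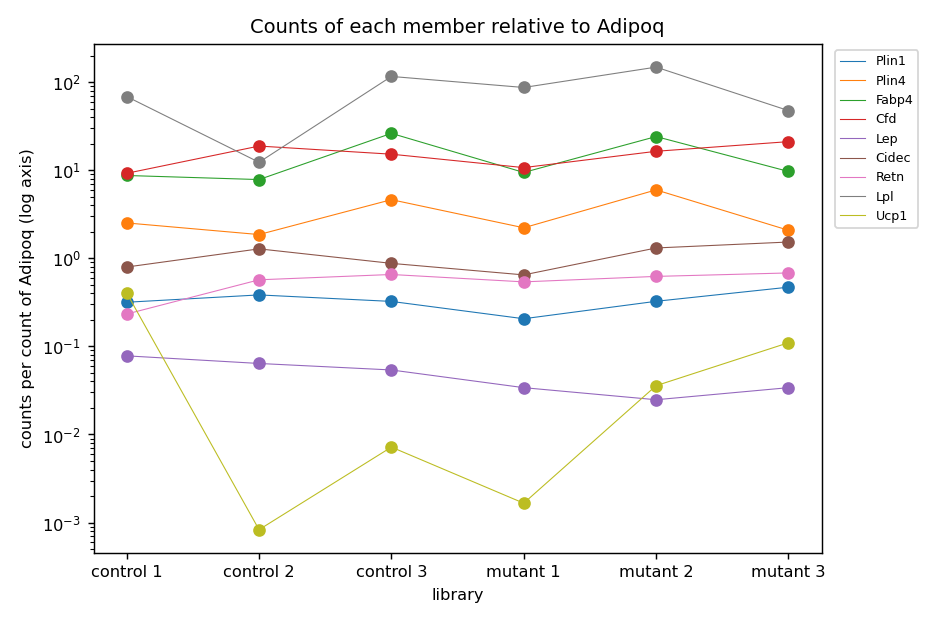
Counts of each other member per count of Adipoq in each library (log axis), 1 colour per gene, with thin lines that only join the points of a gene. Among Plin1, Cfd, Cidec and Retn, the points of Retn vary most, from 0.233 in control 1 to 0.682 in mutant 3. Those of Lep lie between 0.0540 and 0.0781 in the controls and between 0.0248 and 0.0340 in the mutants. Those of Ucp1 span from 0.000831 to 0.404.

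Across the 6 libraries, log2 CPM of Plin1 followed that of Adipoq with Pearson's r = 0.93 (exact permutation p = 0.00833) and Spearman's rho = 1.00 (exact permutation p = 0.00278). For Cfd r was 0.90 and rho 0.94, for Cidec 0.89 and 0.94, and for Lep 0.91 and 0.94. With Benjamini-Hochberg adjustment over the 9 relations computed, the exact permutation p for these 4 genes was 0.0625 for r, and 0.0250 for the rho of Plin1 and 0.0375 for the other 3. For Retn r was 0.80 and rho 0.83 (adjusted exact permutation p = 0.110 and 0.105). The values of Plin4 (r = 0.77), Fabp4 (r = 0.48), Lpl (r = -0.42) and Ucp1 (r = 0.13) had adjusted exact permutation p-values from 0.110 to 0.832. Without control 3 and mutant 2, the libraries farthest from the median of Adipoq, r became 0.89 for Plin1, 0.91 for Cfd, 0.91 for Cidec, 0.75 for Lep, 0.74 for Retn, 0.94 for Plin4, 0.97 for Fabp4, -0.98 for Lpl and -0.31 for Ucp1 over the remaining 4, so that Plin4 and Fabp4 had the highest values there. With the group means removed it was 0.93 for Plin1, 0.90 for Cfd, 0.90 for Cidec and 0.99 for Lep. Without control 2 alone, over 5 libraries, r was 0.89 for Plin1, 0.82 for Cfd, 0.81 for Cidec, 0.85 for Lep, 0.66 for Retn, 0.58 for Plin4, 0.07 for Fabp4, 0.55 for Ucp1 and 0.62 for Lpl, so that the values of Fabp4 and the sign for Lpl changed with the libraries left out. All values of a library share its RNA and its depth.

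Genes of a further list, chosen as other adipose genes, did not all have the same high and low libraries. How particular each of them is to fat cells was not tested. Of the 12 tested, 7 were highest in control 2, and 0 were called. Car3, a carbonic anhydrase abundant in fat, was counted at 185, 488 and 100.3 CPM in controls 1, 2 and 3 and at 134, 91.9 and 331 CPM in mutants 1, 2 and 3. Adig, a small adipocyte protein, was counted at 6.28, 22.5 and 3.91 CPM and at 6.05, 2.86 and 14.1 CPM. Both were highest in control 2 and lowest in mutant 2, as Adipoq was. Rbp4, the retinol carrier that fat secretes, ran from 36.1 CPM in mutant 2 to 84.5 CPM in control 2. Of the 5 that peaked elsewhere, Retnla and Mrap were highest in mutant 3, Nnat in control 1, Sfrp5 in mutant 1 at 54.8 CPM and Itih5 in mutant 2. Itih5 ran the other way from Adipoq, at 60.7 CPM in control 2, its lowest library, and at 163 CPM in mutant 2. Adig, Mrap, Nnat, Sfrp5 and Itih5 were named after the values were seen.

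The transcription factors that make fat cells varied less. Pparg, the master regulator of adipocytes, was counted at 7.25, 8.18 and 8.01 CPM in controls 1, 2 and 3 and at 5.19, 5.13 and 7.84 CPM in mutants 1, 2 and 3. Cebpa was counted at 17.1, 20.9 and 11.9 CPM and at 15.1, 12.8 and 16.6 CPM. Over 10 such regulators the median within-group SD was 0.24, equal to that of all genes, and the median log2 fold change was -0.22, with 9 lower and 1 higher. None was called, and 1 had an unadjusted p under 0.05, against 3.45% of all genes: Cebpb, at -0.31 (standard error 0.09, adjusted p = 0.999 in edgeR). Cebpb lay between 116 and 123 CPM in the controls and between 89.4 and 100.2 CPM in the mutants. Srebf1, at -0.26 (standard error 0.12), was also lower in every mutant. Some regulators followed Adipoq over the 6 libraries, with r of 0.95 for Cebpa and 0.92 for Ebf2. For the others r ran from 0.0 for Ebf1 to 0.77 for Rxra.

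Enzymes of lipid synthesis and storage were measured in all libraries. Of 16 synthesis genes, 0 were called, 6 had a higher and 10 a lower fitted value in the mutants, and the median was -0.08. Thrsp, a lipogenic regulator of fat, ran with Adipoq, from 29.3 CPM in mutant 2 to 89.6 CPM in control 2 and 81.4 CPM in mutant 3. Pck1, which makes glycerol backbones in fat, was at 26.4, 16.2 and 4.34 CPM in the controls and at 5.11, 3.59 and 8.18 CPM in the mutants, which gave -1.48 on the log2 scale (SE 0.62, adjusted p = 0.999 in edgeR). Of 15 droplet and lipase genes 0 were called, and the median was 0.04. Of 13 genes for uptake of fatty acids and glucose 0 were called, with a median of 0.09, and Fabp3, the carrier of heart muscle, was lowest in control 2 at 416 CPM and highest in control 1 at 2066 CPM, a low point shared with Lpl.

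Proteins that act on Lpl and receptors of the adipokines were also measured, and 0 of either list were called. Angptl4, an inhibitor of Lpl, was at 29.0, 21.4 and 24.6 CPM in controls 1, 2 and 3 and at 10.7, 16.6 and 16.4 CPM in mutants 1, 2 and 3. Every mutant lay below every control, and the difference was -0.78 on the log2 scale (SE 0.21, adjusted p = 0.999 in edgeR). Gpihbp1, which holds Lpl on capillary endothelium, was lowest in control 2 at 12.2 CPM and highest in control 3 at 40.2 CPM. Lepr, the leptin receptor, was at 36.2, 29.4 and 26.3 CPM in the controls and at 22.3, 17.8 and 19.3 CPM in the mutants, lower in every mutant, by -0.63 on the log2 scale (SE 0.16, adjusted p = 0.999 in edgeR). It was the 1 of 6 adipokine receptors with an unadjusted p under 0.05, against 3.45% of all genes. Adipor1, a receptor of adiponectin, had a log2 fold change of 0.13.

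Among 15 brown fat and thermogenesis genes tested, 0 were called, and the list's mean log2 CPM was highest in control 1, the library with the most Ucp1. Ucp1 is itself in the list and adds to that mean: minus the mean over the 6 libraries, it was 0.75 in control 1 and 0.19 in mutant 3 with Ucp1, and 0.48 and -0.01 over the other 14 genes. Cidea, a droplet protein of brown fat, was also highest there, at 51.6 CPM, against 13.4 to 25 CPM in the other 5. Slc27a2, a fatty acid transporter that was under the filter and not tested, had 52 counts in control 1 and 0 to 4 in the others. Cox7a1 and Cox8b, the highest of the list per kilobase, are also subunits of cardiac muscle mitochondria. Adrb3, the beta-adrenergic receptor of fat, had its highest level in control 2, at 6.95 CPM, and 3.97 CPM in control 1, and Prdm16, a brown fat regulator, was likewise highest in control 2, at 30.0 CPM. In mutant 3, which had the second highest Ucp1, Cidea was at 15.8 CPM and Slc27a2 had 0 counts. The other 3 genes under the filter were Elovl3, Zic1 and Lhx8. Of these, Elovl3 and Zic1 were highest in mutant 3, at 24 counts of Elovl3 against at most 16 elsewhere and 21 counts of Zic1 against at most 8, while Lhx8 had at most 12 counts.

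Markers of other tissues next to the valve were high or low in some of the same libraries as these genes. The 8 mesothelial markers summed to 1452 CPM in control 2 and 599 in mutant 3, the 2 libraries with the most Adipoq, and to 142, 278, 163 and 425 CPM in controls 1 and 3 and mutants 1 and 2. Upk3b, a defining gene of mesothelium, was at 447 CPM in control 2 and at 30.4 CPM in control 1. The order was not the same throughout, since control 1 had more Adipoq than mutant 2 and a lower mesothelial sum. Over the 6 libraries, r with Adipoq for the 8 mesothelial markers ran only from 0.35 for Upk3b to 0.47 for Krt19. The 8 smooth muscle markers summed to 13507 CPM in control 2 and to between 2291 and 6140 CPM elsewhere, and mutant 3, with 6073 CPM, did not stand out. The 12 cardiac muscle markers summed to 12235 CPM in control 2 and to 38996 CPM in mutant 1, the lowest and the highest library for Lpl too. The 10 macrophage markers summed to 1453 to 1635 CPM in the controls and to 1923 to 2073 CPM in the mutants. Of them 6, with Cd68, C1qa and C1qb among them, had an unadjusted p under 0.05 and higher values in every mutant, although 0 were called. Among all genes tested, 3.45% had an unadjusted p under 0.05 in edgeR and 4.04% were higher in every mutant. How much fat or other tissue was attached to each valve is not given in the sources used here, and the part that any of these tissues had in the members' levels was not tested.

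The remaining lists gave 0 calls each. For comparison with the counts below, 3.45% of all genes tested had an unadjusted p under 0.05 in edgeR. In every mutant, 4.83% of all genes were lower and 4.04% higher than in every control. Of 11 genes of adipose progenitors and fibroblasts, 2 had an unadjusted p under 0.05, Zfp423 at -0.62 (standard error 0.20) and Pdgfrb at -0.36 (standard error 0.15), both lower in every mutant. Of 9 capillary endothelial genes, 1 did, Cldn5 at -0.69 (standard error 0.16), and of 8 smooth muscle genes, 1 did, Smtn at -0.87 (standard error 0.33), while all 8 had a lower fitted value in the mutants, with a median of -0.87, and 3 of them, Smtn, Myh11 and Tagln, were lower in every mutant. Of 7 lymphoid genes, 1 did, Cd3e at 1.72 (standard error 0.57), while Rag1 was at 0 in all 6 libraries. Of 12 valve interstitial genes, 7 skeletal muscle genes and 4 red cell genes, 0 did. The adjusted p was 0.999 in edgeR for Zfp423, Pdgfrb, Cldn5, Smtn and Cd3e, and Rag1 was not tested.

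**Figure D5:**
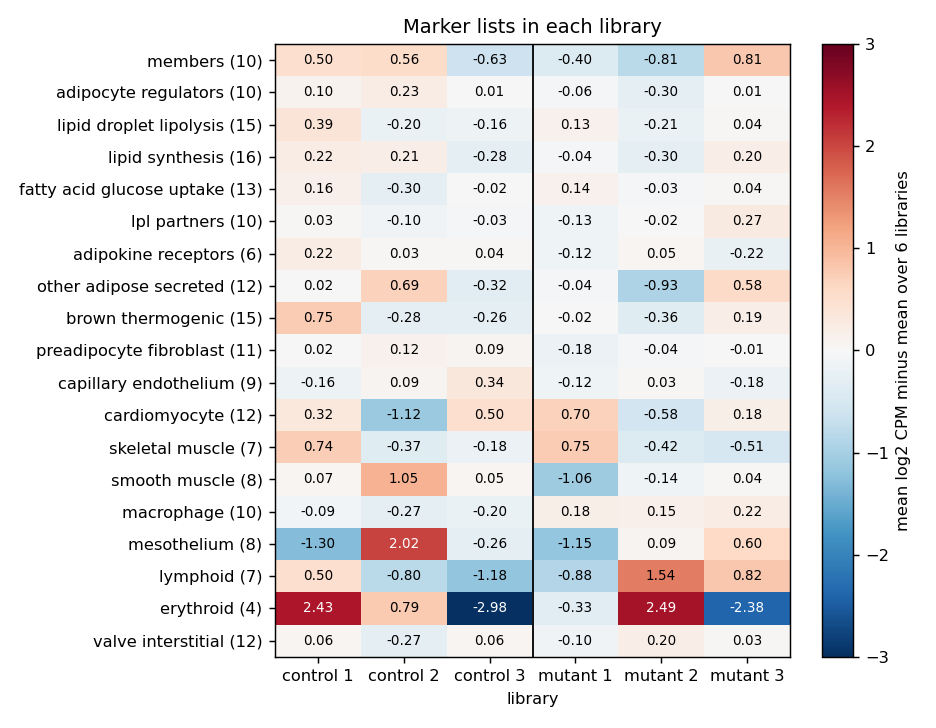
Mean log2 CPM of each marker list in each library, minus the list's mean over the 6 libraries, with the number of genes tested in brackets and a black line between controls and mutants. Mutant 3, control 2 and control 1 are high for the members (0.81, 0.56 and 0.50). Control 2 and mutant 3 are high for the list of other adipose genes (0.69 and 0.58) and for mesothelium (2.02 and 0.60), where control 1 is lowest (-1.30). The members and the brown thermogenic genes both include Ucp1, without which control 1 is at 0.05 and 0.48. The erythroid values follow the assignment of reads between near-identical globin copies, since Hba-a1 was listed at 0 in control 3 and mutant 3, where Hba-a2 had 124177 and 113713 counts, and they are uncertain.

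The 10 genes whose log2 CPM most resembled the mean of the members, among 5257 genes that varied enough, were Mab21l2 (r = 0.983), Kif24 (0.982), Ccdc65 (0.973), Rgs17 (0.972), Prtn3 (0.964), Cntn1 (0.957), Hapln3 (0.950), Rab39b (0.939), Pgbd1 (0.939) and Plch2 (0.938), all over 6 libraries. None belongs to a list used here, and all were low, with Rgs17 the highest at 5.33 CPM in mutant 3. The mean includes Ucp1, which lifts control 1 and mutant 3 in it. The genes are given as a description, since high values of r are easily found among so many genes over 6 libraries. Control 1, control 2 and mutant 3 were the 3 highest libraries for each of the 10. Against Adipoq alone, a comparison added after the values were seen, the 10 closest were Fhl3 (r = 0.986), Sucnr1 (0.977), Rbp4 (0.970), Gabrq (0.965), Vmo1 (0.963), Dlec1 (0.961), Cd248 (0.955), Il17rd (0.953), Adig (0.947) and 6430584L05 (0.945). Of these, Rbp4 and Adig are in the list of other adipose genes. Among the members, Plin1 took place 14, Lep 29, Cfd 39, Cidec 42, Retn 121, Ucp1 1533 and Lpl 3134 of 4024 genes, while Plin4 and Fabp4 varied too little to be ranked.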

How the data were processed

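Aortic valve RNA of 3 control and 3 mutant libraries was prepared with a TruSeq kit and sequenced by the authors on an Illumina HiSeq. The authors aligned the reads to mm10 and quantified genes with Cufflinks and Cuffdiff. For these steps the submitters' processing notes name FastQC, TopHat2 2.0.13, Bowtie2 2.2.1 and Cuffdiff 2.1.1, with no statement on strand. The study's methods give another version of Bowtie2 and do not name TopHat2, so which versions made the deposited values is unclear. The deposited values are estimated counts per gene, not scaled for library size, so near-identical genes can share reads unevenly. They were rounded to whole numbers, and every column was matched to a sample by its label.

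Mutants were compared with controls in edgeR 4.0.16 (R 4.3.3). A gene needed 10 counts or more in 3 or more libraries, which 15354 met. The quasi-likelihood F test, which is two-sided, followed TMM scaling, with Benjamini-Hochberg adjustment over all genes tested and a threshold of 0.05. The common biological coefficient of variation was 0.278. The pipeline was tested on simulated data. For log2 CPM a prior count of 2 was added. Transcript lengths came from the principal GENCODE transcript, promoters from RefSeq, and exact tests from scipy 1.17.1. Alternatives were DESeq2 1.42.0, limma-voom (limma 3.58.1) with and without quality weights, other normalizations and filters, a replicate block, the members' mean as a covariate, and each library left out.

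The members, and lists of related genes, were chosen with earlier results of these data known. By the rule for names, the text names all members, up to 3 genes per list with an unadjusted p under 0.05, up to 3 with the highest level per kilobase, and the 10 genes most like the members' mean. Not every gene so selected is reported, and genes outside the rule, such as Adig, Pparg, Cebpa, Cidea, Slc27a2, Adrb3, Prdm16 and the genes closest to Adipoq, were named after their values were seen. A gene withheld from this text is not reported here.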

Additional observations from a re-analysis of the deposited data

How the results depend on the processing

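Across all alternatives the members gave 0 calls. The number of genes called was 0 in each except DESeq2, which called 26 genes (21 higher, 5 lower), none of them a member. Unadjusted counts ran from 416 to 814. The fold changes of Plin4, Fabp4, Lep and Lpl kept their direction under every alternative for which their fold changes were computed, which leaves out the one with the members' mean as a covariate. Their size moved with single libraries left out, for Lpl to 0.71 without control replicate 1, and without control replicate 2 to 0.02 for Lpl, -0.09 for Plin4, -0.13 for Fabp4 and -0.96 for Lep. Those of other members changed sign, and the cause was not tested. Without control replicate 2 the log2 fold change was 0.15 for Adipoq, 0.29 for Plin1, 0.74 for Cfd, 0.66 for Cidec and 0.91 for Retn. Without mutant replicate 3 it was -0.82, -1.38, -1.14, -1.19 and -0.58 for these genes. Without mutant replicate 2 it was 0.05 for Cfd, 0.03 for Cidec and 0.30 for Retn. Limma-voom with quality weights gave 0.43 for Cfd, 0.31 for Cidec and 0.49 for Retn, and without the weights gave 0.04 for Retn. The mean over the members, mutants minus controls, was -0.27 and ran from -0.75 to 0.06 with single libraries left out (-0.30 without Ucp1, an alternative added after seeing the data), and the median within-group SD was 1.07 and ran from 0.89 to 1.22. At an unadjusted p under 0.05, Plin4 and Lep passed in edgeR without control replicate 3, as did 3.08% of all genes in that fit, with adjusted p = 0.996 for both. Lep was not tested with a mean count of at least 100, nor Ucp1 without control replicate 1, mutant replicate 2 or mutant replicate 3, for want of counts.

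Replicate numbers were shared between the groups, but deviations from the group means correlated at 0.29, 0.08 and 0.03 for the same numbers, so the numbers were not taken to pair the samples. With the replicate block 0 genes were called, 814 had an unadjusted p under 0.05 against 529 without it, the log2 fold change was 0.18 for Retn and 1.31 for Ucp1, and the mean over the members differed by -0.27. Control 2 correlated best with mutant 3, at 0.20, and not with mutant 2. Low counts limit Lep and Ucp1, where single libraries hold under 10 counts.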
